A study of Mus musculus with 960 samples.

Results

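The potassium channel genes described here are the protein-coding genes of the GENCODE M1 annotation (mouse build mm9) whose symbol begins with Kcn. They number 94 of 22208 protein-coding genes, and membership was set by name alone, with no measured value. The measurement is DNA accessibility by ATAC-seq, in which Tn5 transposase tags open chromatin. Single cells of a primary breast tumour were fixed, permeabilised, stained with antibodies and transposed in bulk, and then sorted 1 per well. The tumour came from the MMTV-PyMT mouse, in which the mouse mammary tumour virus promoter drives a viral oncogene in the mammary epithelium. The labels list 960 wells, all filled from tumour tissue of this model, with no untreated, healthy or oncogene-free group among them. On 8 plates (80.0% of the wells) the stain was against EpCAM, which marks epithelial cells, and HIF1α, a transcription factor subunit that low oxygen stabilises. On the other 2 plates (20.0%) it was against EpCAM and CD45, which marks leukocytes. The labels name no animal and no level of HIF1α per well.

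The deposited list holds 50000 windows of 500 bp, each placed around a summit of accessibility that was called on pooled single cells. It therefore counts as 1 sample, with no replicates, and it has no column that ties a window to a well, a stain or a HIF1α level. The sources used here do not say whether wells of the CD45 stain were pooled too. The list carries no read count, height or q-value, so the depth behind a window is unknown. A gene without a window has no summit among the windows kept, which is not a measurement of closed chromatin. Shares are given with exact binomial (Clopper-Pearson) 95% intervals, which cover counting error only and treat genes as independent, and no test was run. A start window is a window with at least 1 base within 1 kb of any annotated start site of the gene, and distances run from the summit. The tissue label was checked against marker genes. All 8 luminal markers, Epcam and Krt8 among them, had a start window, against 0 of 6 blood, 0 of 6 stromal and vascular and 0 of 6 muscle markers. Outside their start sites, Pecam1 of the vessels had 5 windows in the gene, Ckm of muscle 3, and Csf1r of blood and Ttn of muscle 1 each. Among 7 neuronal markers, 3 (Snap25, Syn1 and Nefl) had a start window, and 6 had a window in the gene or at a start, with Syp, Rbfox3 and Nefm having 1, 3 and 1 elsewhere only. A CpG island start site (defined below) was present in 4 luminal and 5 neuronal markers, and in 0 of the others. Over all genes, 82.2% with such a site had a start window, against 16.0% without. All 4 luminal markers without an island had one. Promoter type thus differed between the marker lists, and its part in the contrast was not tested.

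Potassium channels let potassium leave or enter cells along its gradient and so set the membrane potential. In epithelia they drive the secretion and uptake of salt and water and help to set cell volume, and in nerve and muscle they end action potentials. Pore subunits open with voltage, with internal calcium or sodium, or at rest, and accessory subunits change the gating or the traffic of the pores. In human tumours, several of them, among them KCNH1, KCNK9, KCNN4 and KCNMA1, are known for raised expression.

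Of the 94 Kcn genes, 23 had a start window (24.5%, interval 16.2 to 34.4%), against 11774 of all 22208 protein-coding genes (53.0%). Counting windows anywhere in the gene or within 1 kb of a start site, 43 Kcn genes had a window (45.7%, 35.4 to 56.3%), against 13012 of all genes (58.6%). The other 51 Kcn genes had none. Of the 43, 20 had windows inside the gene without one at a start site (46.5%, 31.2 to 62.3%), against 1238 of the 13012 genes with a window overall (9.51%). These percents also rise where fewer genes have a start window. With genes without a window in the denominator, they were 21.3% of Kcn genes and 5.57% of all genes. The windows of the Kcn genes numbered 34 at start sites and 87 elsewhere in the gene, the second kind with 80 summits in introns, 4 in untranslated regions and 3 in coding exons. No start window of a Kcn gene was also within 1 kb of the start of another protein-coding gene, against 2175 of the 19661 start windows of all genes (11.1%). Noncoding starts were left out of this count, and some of the 34 Kcn start windows also lay within 1 kb of one. Of the Kcn genes, 10 had 4 or more windows (10.6%), against 13.1% of all genes, and these 10 held 70 of the Kcn windows (57.9%), against 54.7% over all genes with windows counted for each gene they lie in. Among them were Kcnn4 with 13, Kcnma1 and Kcnn2 with 8 each, Kcnq1 with 7, Kcnh1 and Kcnip1 with 6 each, Kcnk1 with 5, and Kcnk5 and Kcnj15 with 4 each.

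**Figure D1:**
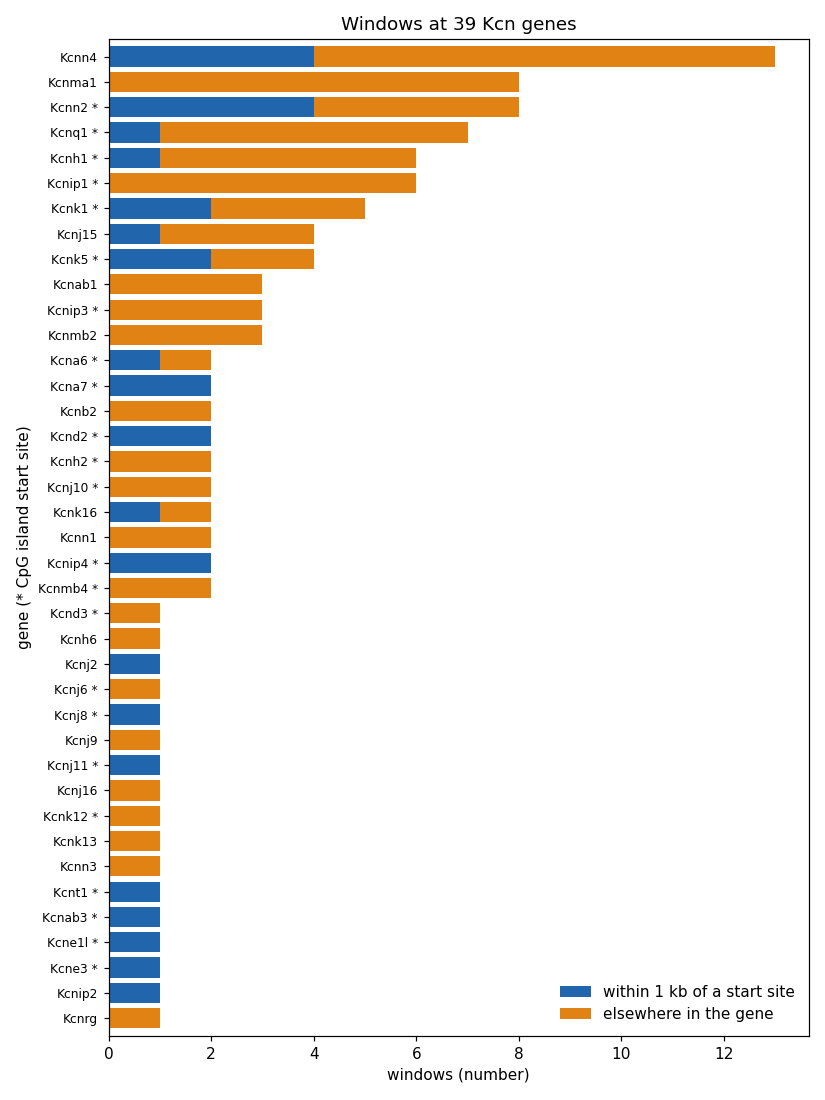
Number of windows (x axis) at each of 39 Kcn genes with any (y axis), split into start windows and windows elsewhere in the gene, with an asterisk for genes with a CpG island start site. Kcnn4 stands first with 13 windows, which came from 5 called peaks, and 19 of the genes shown have orange segments alone.

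Sequence from the mm9 genome shows what these windows look like. In the first stretch, from the Kcnn4 window whose called peak kept the most windows, capitals mark words of 12 letters that recur within its 500 bp. It lies in an intron at chr7:25156122-25156321 (plus strand), with the summit 0.766 kb after a start site. The next 2 stretches show motif matches in introns of channel genes known from kidney epithelium, namely Kcnk1 at chr8:128520767-128520966 (plus strand) and Kcnj15 at chr16:95482337-95482536 (plus strand). In Kcnk1 the capitals mark a FOX match (TGTTTAC, here on the other strand) and a GRHL match (AACCNGTT), and in Kcnj15 an AP-1 match (TGANTCA).
Kcnn4 intron: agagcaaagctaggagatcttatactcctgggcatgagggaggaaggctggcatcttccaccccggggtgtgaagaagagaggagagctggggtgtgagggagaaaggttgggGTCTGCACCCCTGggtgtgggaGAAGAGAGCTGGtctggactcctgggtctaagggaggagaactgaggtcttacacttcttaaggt
Kcnk1 intron: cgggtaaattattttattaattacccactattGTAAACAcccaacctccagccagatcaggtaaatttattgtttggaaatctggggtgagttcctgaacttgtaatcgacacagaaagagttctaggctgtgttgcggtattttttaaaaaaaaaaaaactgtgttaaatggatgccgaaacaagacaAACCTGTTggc
Kcnj15 intron: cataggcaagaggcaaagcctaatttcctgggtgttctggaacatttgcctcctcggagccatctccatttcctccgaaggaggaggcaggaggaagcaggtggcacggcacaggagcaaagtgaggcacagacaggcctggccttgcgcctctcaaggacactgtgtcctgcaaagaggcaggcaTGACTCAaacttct

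A second pair, chosen after the values were seen, sets the start of the member with the most windows beside that of a member with none. It gives the 200 bases before the outermost start site, with each CpG dinucleotide in capitals, for Kcnn4 (chr7:25155082-25155281, plus strand) and for Kcng3, an electrically silent subunit (chr17:84031236-84031435, minus strand). The Kcnn4 stretch held 5 CpG dinucleotides at 58.5% GC and the Kcng3 stretch 33 at 82.5% GC. Of these 2 start sites, the one with few CpG dinucleotides was in the accessible list, and the closest summit to the Kcng3 start was 13513 bp away.
Kcnn4 upstream: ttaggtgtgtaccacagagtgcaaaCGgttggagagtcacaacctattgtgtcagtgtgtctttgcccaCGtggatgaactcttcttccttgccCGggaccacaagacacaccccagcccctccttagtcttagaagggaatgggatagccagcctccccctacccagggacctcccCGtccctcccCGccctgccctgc
Kcng3 upstream: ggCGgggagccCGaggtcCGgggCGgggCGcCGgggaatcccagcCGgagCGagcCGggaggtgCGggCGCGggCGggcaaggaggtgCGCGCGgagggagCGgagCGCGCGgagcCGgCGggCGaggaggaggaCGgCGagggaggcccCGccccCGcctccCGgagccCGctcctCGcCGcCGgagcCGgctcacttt

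CpG islands, stretches rich in GC and CpG, mark the promoters of most broadly used genes and of many neural and developmental genes. An island start site here has, within 500 bp of it, 500 bp with at least 55% GC and an observed over expected CpG ratio of at least 0.65. A gene was counted with an island if any of its start sites had one, so its start window may lie at another of its start sites. Of the 94 Kcn genes 55 (58.5%) had one, against 12425 of all genes (55.9%). Of these 55, 18 had a start window (32.7%, 20.7 to 46.7%), against 82.2% of all genes with an island start site (10210 of 12425). Of the 39 Kcn genes without an island, 5 had a start window (12.8%, 4.30 to 27.4%), against 16.0% of such genes overall (1564 of 9783). The interval of the island members lay wholly under the share of all island genes, and that of the members without an island held the share of all such genes. The 37 island members without a start window were not the CpG-poor ones. Their highest density of CpG dinucleotides within 500 bp of a start site had a median of 7.89 per 100 bp, against 6.24 in the 18 with a start window. Over all genes the order was the other way, with a median of 6.49 per 100 bp in the 2215 island genes without a start window and 7.29 in those with one. The 5 members with a start window and no island were Kcnn4, Kcnj2, Kcnj15, Kcnk16 and Kcnip2.

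**Figure D2:**
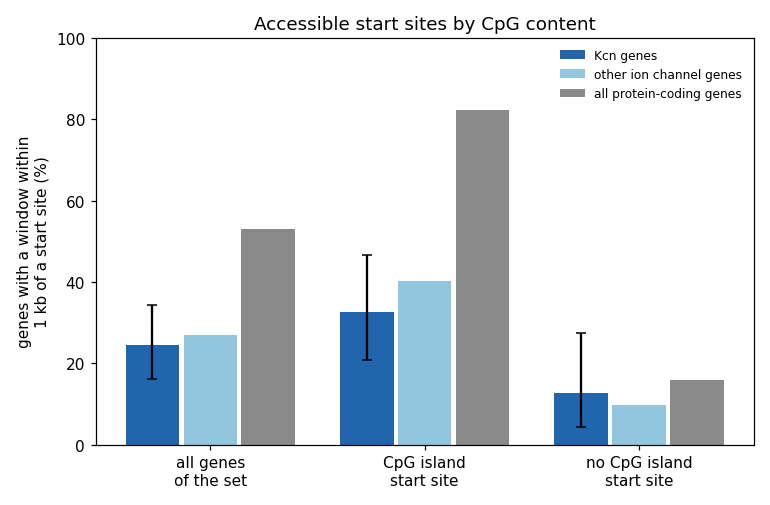
Percent of genes with a start window (y axis, from 0 to 100) for Kcn genes, other ion channel genes and all protein-coding genes, over the whole set and by whether any start site of the gene has a CpG island (x axis). Error bars on the Kcn bars are exact 95% binomial intervals. Among genes with an island start site the Kcn bar stands at 32.7% and that of all genes at 82.2%, and without an island at 12.8% and 16.0%.

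The distance from a start site to the closest summit was also taken, with no limit of 1 kb. Its median was 12.0 kb for the Kcn genes, against 0.365 kb for all genes, and 12.4 kb for the Kcn genes with an island start site, against 0.0840 kb for all island genes. Of the island members, 16 of 55 (29.1%) had no summit within 50 kb of a start site, against 5.30% of all island genes. With and without an island together, 29.8% of the Kcn genes had no summit within 50 kb, against 21.8% of all genes, and 12.8% had none within 100 kb, against 15.2% of all genes, so that the order turned between the 2 distances. Among the 51 members without a window, the closest summit lay 1443 bp (Kcne1) to 1350396 bp (Kcnj3) from a start site, with a median of 49556 bp. It lay within 10 kb for 10 of them and beyond 100 kb for 12. Closest to the limit of 1 kb, which is measured to the edge of a window, were start windows of Kcnn4 and Kcna7 with summits at 1.191 and 1.018 kb on the inner side, and the window of Kcnrg at 1.301 kb and the summit near Kcne1 at 1443 bp on the outer side.

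**Figure D3:**
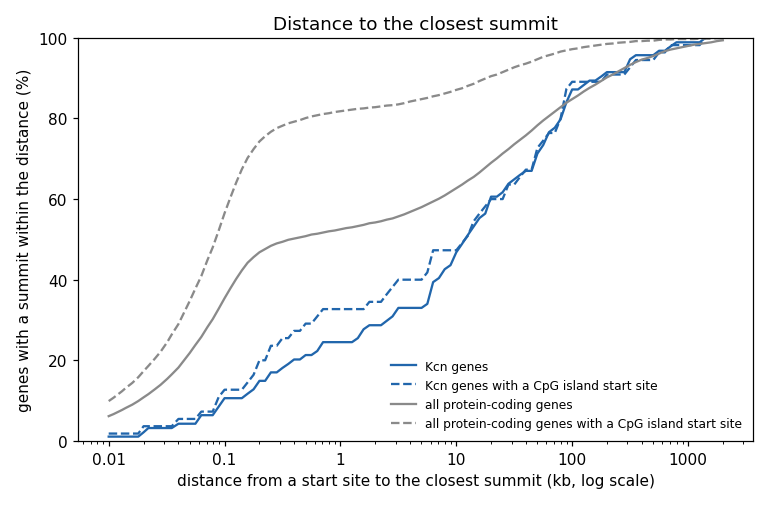
Percent of genes with a summit within a given distance of a start site (y axis) against that distance (x axis, kb, log scale), for Kcn genes and all protein-coding genes (solid lines) and for those with a CpG island start site (dashed lines). The dashed blue line (Kcn) has its median at 12.4 kb and the dashed grey line (all genes) at 0.0840 kb.

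Kcn genes are long, with a median span of 28.1 kb against 15.6 kb for all genes. They had 1.24 windows per 100 kb of gene (counting interval 1.03 to 1.48), against 3.71 for all genes. Over 100 kb the densities were 0.625 and 1.90, from 20 to 100 kb they were 3.03 and 4.77, and up to 20 kb they were 7.67 and 12.1, with the Kcn value first. Among genes over 100 kb, 13 of 23 Kcn genes had a window in the gene or at a start site (56.5%, 34.5 to 76.8%), against 82.3% of all such genes. Kcnip4, with 1135 kb the longest member, had 2 windows, both at a start site. Of all Kcn genes, 20.2% had 2 or more windows elsewhere in the gene, against 12.9% of all genes. By length this was 34.8% (8 of 23) against 47.8% over 100 kb and 30.0% (9 of 30) against 18.3% from 20 to 100 kb. Up to 20 kb it was 4.88% (2 of 41) against 3.06%. These differences rest on few Kcn genes and were not tested. Of the 23 members with a start window, 7 had 2 or more (30.4%), against 51.0% of all genes with one, and 2, Kcnn4 and Kcnn2, had 4 (8.70%), against 7.99% with 4 or more.

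The counts by class stand beside start windows in 24.5% of all Kcn genes and 53.0% of all protein-coding genes. The interval of each of the 8 classes held 24.5%, and differences between classes were not tested. The voltage-gated pore subunits of the Kcna, Kcnb, Kcnc and Kcnd families, best known for ending action potentials, gave 5 of 17 members with a start window (29.4%, 10.3 to 56.0%), 2 with windows elsewhere only and 10 with none. All 5 had an island start site. Kcna7, a subunit of muscle and heart, had windows with summits 0.682 kb before and 1.018 kb after its start and no other. Kcnd2, a pore of the fast transient current of neurons and heart, had 2 windows at its start and none in the rest of its 514.3 kb. Kcna6 had 1 start window and 1 in an intron, the second at the start of the noncoding Gm17456, and such a window cannot be told apart between the genes. Kcnb2 with 2 and Kcnd3 with 1 had intron windows alone. Kcna1, Kcna2 and Kcna3, which serve axons and, in the case of Kcna3, T cells, had none, with the closest summits 72757, 12406 and 77811 bp from a start.

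Of 8 EAG-type subunits (Kcnh), 1 had a start window, 2 had windows elsewhere only and 5 had none. The gene with the start window was Kcnh1, the ether-a-go-go channel of neurons. Its start summit lay 20 bp before a start site, in a window with 55 CpG dinucleotides, and 5 more windows lay in introns of its 319.4 kb. Those 5 held 2 to 8 CpG dinucleotides each. Kcnh2, the cardiac channel called hERG in people, had 2 intron windows, 1713 and 3343 bp after a start, and Kcnh6 had 1. Kcnh3, Kcnh4 and Kcnh5 had none.

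Of 5 KCNQ subunits, which carry slow currents that steady the membrane potential, all with island start sites, 2 had a start window, 1 had a window elsewhere only and 2 had none. Kcnq1, the channel of heart muscle and of secreting epithelia, had a start window 62 bp before a start and 6 in introns, up to 259347 bp after the closest start. In 5 of the 6 there were 5 to 9 CpG dinucleotides, and in the window at chr7:150482099-150482598 there were 23. An intron of Kcnq1 is known to hold the CpG-rich start of an imprinted antisense RNA, Kcnq1ot1, which this annotation does not list, so its position was not compared here. Kcnq3 and Kcnq5, of the M current of neurons, had none, with the closest summits 291304 and 637213 bp from a start.

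The 10 electrically silent subunits (Kcnf, Kcng, Kcns and Kcnv), which form no channel alone and join Kcnb pores, had no window at all. The interval for 0 of 10 start windows runs from 0 to 30.8%, which holds the 24.5% of all Kcn genes. A window in the gene or at a start site was missing in 51 of all 94 Kcn genes. Of all protein-coding genes, 58.6% had one. Of the 10, 8 had an island start site. Kcnf1, Kcng1 and Kcng2 had closest summits at 81312, 38812 and 17596 bp, and Kcns1 the nearest of the class at 2417 bp.

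**Figure D4:**
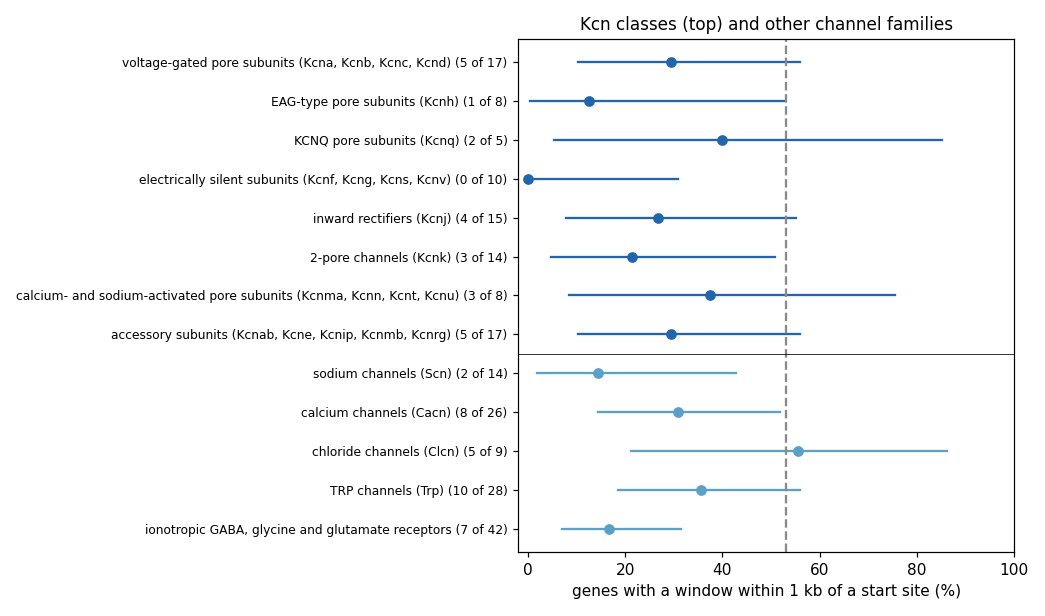
Percent of genes with a start window (x axis) for the 8 Kcn classes above the line and 5 other channel families below it, with exact 95% binomial intervals. The dashed line marks 53.0%, the share of all protein-coding genes. The silent subunits stand at 0 and the chloride channels at 55.6%.

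Of 15 inward rectifiers (Kcnj), which pass potassium inward more readily than outward, 4 had a start window, 4 had windows elsewhere only and 7 had none. Kcnj15, a channel of kidney and other epithelia, had a start window 0.674 kb after one of its 8 start sites and 3 in introns, with the AP-1 match printed above in the one at 2578 bp. Kcnj2, a strong rectifier of heart and muscle, had 1 start window, 0.095 kb before its start. Kcnj8 and Kcnj11, the pores of ATP-sensitive channels, had 1 start window each, 0.166 and 0.583 kb before their starts. Their sulfonylurea receptor partners had none at a start, with 0 windows for Abcc8 and 2 elsewhere in the gene for Abcc9. Kcnj10, a channel of glia and kidney, had 2 windows in an untranslated region from 1 called peak, 30171 and 30610 bp from a start. Its neighbour Kcnj9 had 1 in a coding exon. Kcnj16, which joins Kcnj10 or Kcnj15 in kidney, had 1 intron window, and so had Kcnj6. Kcnj1, Kcnj3 and Kcnj4 had none.

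Of 14 2-pore channels (Kcnk), the leak channels of resting cells, 3 had a start window (21.4%, 4.66 to 50.8%), 2 had a window elsewhere only and 9 had none. Kcnk1, a weak rectifier of kidney and brain, had 2 start windows, 0.196 and 0.732 kb after its start, and a window 1.865 kb after it from the same called peak. The window at 1.865 kb held matches to AP-1, GRHL and FOX, and 2 more windows lay further into the gene. Kcnk5, a pH-sensitive channel of epithelia, had 2 start windows, with summits 0.004 and 0.372 kb after the start, and 2 in introns. Kcnk16, a channel of pancreatic islets that lies within 100 kb of Kcnk5, had 1 start window and 1 in an intron, and the stretch from one gene to the other held 12 windows, 6 of them outside both. Kcnk12 had 1 intron window and Kcnk13 had 1 in a coding exon. Among those with none were Kcnk2, Kcnk3 and Kcnk4, mechanical and acid-sensitive channels. Kcnk6 had none within its zone, with the closest summit 5724 bp from a start and 14 windows within 50 kb of the gene. Kcnk9, acid-sensitive and known from amplification in human breast cancer, had its closest summit 183244 bp away and 0 windows within 50 kb. Both have island start sites, with 7.49 and 8.79 CpG dinucleotides per 100 bp.

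The calcium- and sodium-activated pores held the most windows of the 8 classes, 33 over 8 genes, and 21 of these were in Kcnn4 and Kcnn2. The windows of Kcnn4 and of Kcnn2 came from 5 called peaks each. The order of the classes is thus one of windows and not of separate called peaks. Start windows were found in 3 of the 8 genes (37.5%, 8.52 to 75.5%), windows elsewhere only in 3 and none in 2. Kcnn4, the intermediate-conductance calcium-activated channel of blood cells and secreting epithelia, spans 14.9 kb with at most 2.60 CpG dinucleotides per 100 bp at a start site. It had 4 start windows and 9 in introns. The first 2 start windows came from 1 called peak, with summits 0.374 and 0.063 kb before the closest start site. A called peak with 7 kept windows reached from the third start window into the gene, from 25155972 to 25159926 on chromosome 7. In 4 of the 13 windows over 10% of the 12-letter words recurred within the window (12.7 to 21.7%), and 7 Kcn windows in all passed that mark, with a median of 0% over all of them. How reads were placed in such repeated sequence, and its part in these windows, was not tested.

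Kcnma1, the large-conductance pore opened by calcium and voltage, had 8 windows in the introns of its 504.5 kb and none at its 3 start sites, none of which is in an island. The window closest to a start lay 10412 bp after it, 5 of the others came from 2 called peaks, and the last 2 stood alone. Kcnn2, a small-conductance pore of neurons and heart, had 4 start windows, 1 at the outer start (0.734 kb before it) and 3 at the inner one. A called peak with 4 kept windows, 2 of them start windows, had summits 1.668 to 0.356 kb before that inner start, and another called peak gave the window with its summit 0.471 kb after it. The last 2 windows lay in introns, 57958 bp before and 118367 bp after the inner start. Kcnt1, a sodium-activated pore, had 1 start window, 82 bp before 1 of its 12 start sites. Kcnn1 had 2 and Kcnn3 had 1 intron window. Kcnt2 and Kcnu1 (a channel of sperm) had none.

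**Figure D5:**
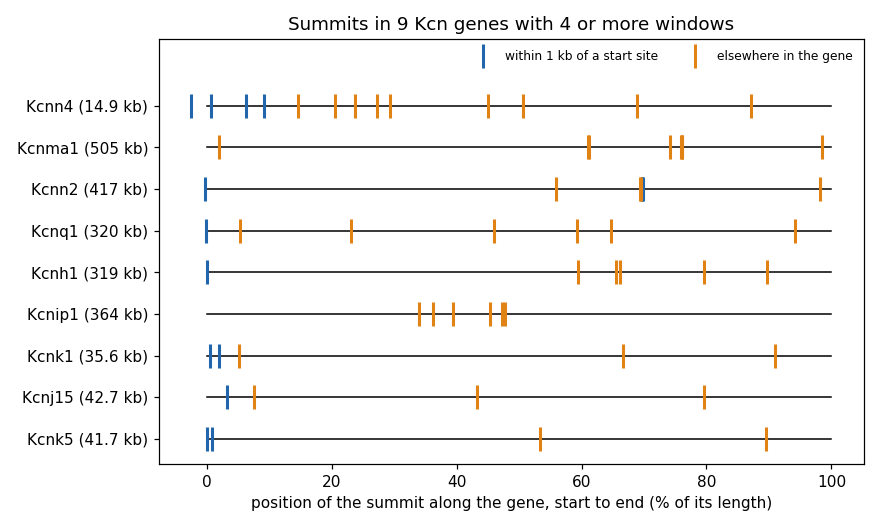
Position of each summit along the gene, from its outermost start at 0 to its end at 100 (x axis, percent of gene length), for 9 of the Kcn genes with 4 or more windows (y axis, with gene length in kb). Blue ticks are start windows and orange ticks those elsewhere. Kcnn4 has its ticks most closely spaced near its start, and Kcnma1 and Kcnip1 have no blue tick.

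Of 17 accessory genes, 5 had a start window (29.4%, 10.3 to 56.0%), 6 had windows elsewhere only and 6 had none. Kcnip4, a calcium-binding partner of the Kcnd pores, had 2 start windows, 0.246 and 0.808 kb before a start. Kcne3, the partner of Kcnq1 in secreting epithelia, had 1, with the summit 0.096 kb before its start, and so both genes of that pair had a start window. Kcnab3, a cytoplasmic beta subunit, had 1 at 0.036 kb after a start, and Kcne1l, an X-linked relative of Kcne1, had 1 at 0.188 kb before. The fifth, Kcnip2, outside the rule for named genes, had 1 at 21 bp before a start. Kcnip1, another partner of the Kcnd pores, had 6 intron windows from 6 called peaks between 6249 and 25940 bp from the closest start and none at its 6 start sites. Kcnip3 and Kcnab1 had 3 windows each, and so had Kcnmb2, a beta subunit of the Kcnma1 channel. Kcnmb4, of the same family, had 2, and Kcnrg, which hinders the assembly of voltage-gated pores, had 1 intron window 1301 bp after its start. Kcnab2, Kcne1 and Kcne2 had none. Of the 4 Kcnmb genes, 0 had a start window, as Kcnma1 had none.

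Some members lie within 100 kb of each other, and their windows were counted by stretch. None of Kcna3, Kcna2 and Kcna10 had a window, and the 160 kb they cover held 2 outside them. Kcnj5 and Kcnj1 had none, with 0 over their stretch, and Kcne2 and Kcne1 had none, with 1 outside them. Kcna1 had none and its neighbour Kcna6 had 2. All 6 windows of the Kcnip1 stretch were of Kcnip1 and not of Kcnmb1, which lies inside it on the other strand. Kcnj16 and Kcnj2 had 1 each.

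The windows of the Kcn genes were close to all windows of their kind in base content. Those at start sites had a median GC content of 61.3% and 26.5 CpG dinucleotides, against 61.2% and 33 for all start windows. Those elsewhere had 52.2% and 7, against 50.6% and 7 for all windows elsewhere in a gene. Motif letters, counted on both strands anywhere in the window, were as frequent as in all windows of the same kind within the intervals, with 1 exception. The exception was ETS (CCGGAAG) at start sites, in 1 of 34 Kcn windows (2.94%, 0.0744 to 15.3%), against 16.7% of all start windows, and it was in 7 of 87 elsewhere (8.05%, 3.30 to 15.9%), against 4.28%. The AP-1 letters were in 3 of 34 at start sites (8.82%), against 8.56%, and in 12 of 87 elsewhere (13.8%), against 17.8%. The RE1 letters searched (CAGCACC) are part of the element bound by REST, a repressor of neuronal genes in other tissues, and were in 20.6% of Kcn start windows, against 15.0%. The HIF core ACGTG was in 35.3% of Kcn start windows, against 35.9%, and in 27.6% elsewhere, against 25.0%. The other letters searched were GCGTG (HIF), GGAATG (TEAD), TTGGCA (NFI), TGTGGT (RUNX), GGGCGG (SP and KLF factors) and the FOX and GRHL letters given above, which makes 22 shares over 2 kinds of window. None of these letter sets contains another, though matches may overlap in a window.

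Other ion channel genes gave a share near that of the Kcn genes. The Kcn share was 24.5%, against 26.9% (32 genes, 19.2 to 35.8%) of the sodium, calcium, chloride and TRP channel genes and ionotropic receptor genes as 1 set. With an island start site, the share was 32.7% for Kcn genes and 40.3% for these (27 of 67), and without one 12.8% and 9.62% (5 of 52). The families ran from 2 of 14 sodium channels and 7 of 42 ionotropic receptors through 8 of 26 calcium and 10 of 28 TRP channels to 5 of 9 chloride channels. The difference between Kcn and these families was not tested.

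Other genes that move potassium or work with these channels were counted by role, beside the 53.0% of all genes, and differences between these short lists were not tested. Of 7 subunits of the sodium-potassium pump, which builds the gradient the channels use, 3 had a start window, among them Atp1b1 with 4 windows there and Atp1b3 with 2. Atp1b2, an isoform known from brain, had no window. Of 3 proton-potassium pump subunits 0 had a window, and of 7 FXYD pump regulators 2 had a start window, Fxyd3 with 8 and Fxyd5 with 1. Of 7 cation-chloride cotransporters, 3 had a start window, among them Slc12a2 with 3 windows there and Slc12a7 with 1. So had 4 of 5 WNK and SPAK kinases matched in the annotation, which regulate those cotransporters, and all 3 potassium channel genes of inner membranes outside the Kcn name (Tmem175, Tmem38a and Tmem38b). All 5 kinase genes and all 3 inner-membrane genes have island start sites, and of all such genes 82.2% had a start window. Of the 4 HCN channel genes, pores for sodium and potassium opened by hyperpolarisation, 0 had a start window, although all 4 have island start sites. The share was 40.3% for the other ion channel genes above that have an island start site. Of 9 partner genes of Kcn pores, 2 had a start window. These were Dpp6, which joins Kcnd pores, and Lrrc26, an epithelial subunit that lets Kcnma1 open at lower voltage, each with 2.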

How the data were processed

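Single tumour cells were profiled by ATAC-seq. The authors trimmed adapters, mapped reads to mm9 with Bowtie2 (2.1.0), removed low-quality, duplicate (Picard 1.79) and mitochondrial reads, called summits with MACS2 (of a version that the sources used here do not give) on pooled cells, widened each summit and kept the 50000 windows of lowest q-value. The submitters' processing notes list mm9 and hg19. The deposited positions are other than counts or signal: chromosome, start, end and peak name, where a letter in the name marks a called peak with several summits. Keeping a fixed number of windows means that a summit can be missing through depth or rank. Read depth per window is unknown.

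Windows were joined to GENCODE M1 genes (mm9) with Python 3.11.15, numpy 2.4.6 and scipy 1.17.1, and the overlap code was checked on simulated windows. Records of 1 symbol on 1 chromosome were joined, which turned 96 Kcn records into 94 genes. Overlap needed 1 bp. Counts of genes and windows were set beside the same counts over all protein-coding genes, with no test.

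The genes, lists and comparisons were chosen with earlier results of these data known. In each class the named genes were up to 4 with the most start windows, up to 3 with windows elsewhere only and up to 3 with none in symbol order, plus a fixed list of epithelial and tumour-related members. Lists held 1 gene, Wnk3, that had no protein-coding record. Some members that the rule names are not reported here by name and are left out of the plots of single genes. Sequences were read from the mm9 genome. Alternatives changed the distance, the start sites, the island definition, the overlap and the windows kept.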

Additional observations from a re-analysis of the deposited data

How the results depend on the processing

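Of 96 alternatives over 17 results, 71 stayed within 1.5 times a count or within the interval of a share, and 25 moved further. No paired analysis was possible because the summits were called on a pool of cells, and for the same reason no replicate could be left out. Restricted to called peaks with 2 or more kept windows, the Kcn genes fell to 31 windows, 21 of them away from start sites, and 0.317 per 100 kb. Then 7 genes had a window in the gene or at a start site and 4 had a start window (4.26%), against 22.2% of all genes, and the shares were 5.45% with and 2.56% without an island. The count of members with a start window was then 0 for the voltage-gated, EAG-type, KCNQ, inward rectifier and accessory classes. This setting keeps fewer windows by construction. With a distance of 10000 bp, 44 Kcn genes had a start window (46.8%), against 62.9% of all genes. With 5000 bp the count was 2 for EAG-type, 1 for electrically silent and 9 for accessory genes. The share of all genes was 51.8% with 500 bp, 58.2% with 5000 bp, 50.0% with the outermost start site alone, 52.3% with start sites of protein-coding transcripts alone and 43.5% without windows at the starts of other genes. Counting each of the 96 gene records, an alternative chosen after seeing the data, moved neither Kcn count beyond 1.5 times. Depth could not be weighed, since the list holds no counts.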
